A study of Mus musculus with 55 samples.

Results

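The levels of 10 chaperone genes were followed in mouse liver across inbred lines. They were taken by symbol from the 37620 genes of the deposited tables: 7 code for heat shock proteins of the cytosol (Hspa1a, Hspa1b, Hsph1, Dnajb1, Hsp90aa1, Hspa8 and Hspb1) and 3 for proteins of the endoplasmic reticulum (ER; Hspa5, Sdf2l1 and Creld2). All 10 passed the filter on low counts and were among the 15285 genes tested for differences among lines.

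RNA was sequenced from the livers of 55 male mice of 29 Collaborative Cross (CC) lines, which are recombinant inbred lines bred from a shared set of classical and wild-derived founder strains. No mouse was treated and none carried a transgene, so the line was the only grouping. There were 8 lines with 1 mouse, 16 with 2 and 5 with 3, aged between 8.0 and 11.9 weeks and weighing between 12.8 and 38.0 g. The depth was between 20.5 M and 34.0 M fragments assigned to genes (median 27.7 M). Neither a processing batch nor the day or hour of collection was among the labels, and line mates may have been collected together, so that the line and its handling cannot be told apart. Hepatocyte markers were abundant in each liver, with a summed level of 7 genes between 30470 and 79652 FPKM (fragments scaled to transcript length and library size). Both mice of IL-4457, the mouse of IL-2126 and replicate 1 of IL-2146 were the least like those of other lines over all genes. Each mouse of IL-1052 and of IL-2750 had its most similar mouse in the other of these lines, in neither of which any of the 10 genes was called.

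Cells raise cytosolic chaperones in the heat shock response, in which the transcription factor HSF1 forms trimers and binds repeated GAA units, the heat shock element, in front of its target genes. The ER has a separate program, the unfolded protein response, in which ATF6 and XBP1 act on genes for folding enzymes through the ER stress response element, a CCAAT box spaced from a CCACG box. The liver secretes most plasma proteins, and ER chaperones are therefore abundant in hepatocytes under normal conditions, while the inducible heat shock genes are known for low levels in unstressed tissue.

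The regions around the gene starts were searched for exact matches to the letters of these elements. Imperfect elements, and those outside the window, were not counted. RefSeq promoters (GRCm38.p6, 250 bases before the start to 50 bases after it) matched 8 of the 10 genes, and Hspa8 and Hsp90aa1 were not among them. The heat shock element of 3 units (GAA, any 2 bases, TTC, any 2 bases and GAA, on both strands) was found in 0.603% of 32851 mouse promoters and, of the 8 genes, in Hsph1. There it lay after the annotated gene start, at bases 287 to 299 of the printed window. Pairs of units (GAANNTTC or TTCNNGAA, N for any base, both of which lie within the element of 3 units) were found in 15.1% of promoters and in Hspa1a, Hspa1b, Hsph1 and Hspb1. Hspb1 held 2 of GAANNTTC, and Hsph1 held 1 of GAANNTTC and 2 of TTCNNGAA. The ER stress response element (CCAAT, any 9 bases and CCACG, on both strands) was found in 0.119% of promoters and in Hspa5 and Creld2. No match for these letters was found in the windows of Dnajb1 and Sdf2l1. A second ER element (ATTGG, any base and CCACG, on both strands), found in 0.0365% of promoters, matched none of the 8 genes. The promoters with a match are printed 5′ to 3′ with the fixed letters of the heat shock or ER stress response element in capitals (for Hsph1, those of the element of 3 units). Of the pair Hspa1a and Hspa1b both are shown because they differ at only 4 of 300 positions. Hsph1 had another, overlapping window with the same element, which is not printed.
Hspa1a, chr17:34972107-34972406, minus strand: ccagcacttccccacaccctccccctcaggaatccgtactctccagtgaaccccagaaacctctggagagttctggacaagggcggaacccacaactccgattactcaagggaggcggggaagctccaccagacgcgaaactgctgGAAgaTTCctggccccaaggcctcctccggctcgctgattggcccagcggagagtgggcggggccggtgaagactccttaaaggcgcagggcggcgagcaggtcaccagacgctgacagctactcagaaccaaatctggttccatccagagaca
Hspa1b, chr17:34959189-34959488, minus strand: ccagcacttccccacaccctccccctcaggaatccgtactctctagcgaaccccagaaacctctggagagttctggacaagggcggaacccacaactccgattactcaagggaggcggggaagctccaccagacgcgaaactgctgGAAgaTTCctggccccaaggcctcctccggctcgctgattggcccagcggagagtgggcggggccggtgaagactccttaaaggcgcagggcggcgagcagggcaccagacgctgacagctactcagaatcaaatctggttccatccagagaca
Hsph1, chr5:149636287-149636586, minus strand: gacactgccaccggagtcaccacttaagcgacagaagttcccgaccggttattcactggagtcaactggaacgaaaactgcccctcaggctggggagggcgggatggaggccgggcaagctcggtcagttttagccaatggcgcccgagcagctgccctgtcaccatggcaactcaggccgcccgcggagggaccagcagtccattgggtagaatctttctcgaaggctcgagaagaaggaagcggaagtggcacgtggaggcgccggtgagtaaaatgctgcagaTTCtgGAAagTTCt
Hspb1, chr5:135887669-135887968, plus strand: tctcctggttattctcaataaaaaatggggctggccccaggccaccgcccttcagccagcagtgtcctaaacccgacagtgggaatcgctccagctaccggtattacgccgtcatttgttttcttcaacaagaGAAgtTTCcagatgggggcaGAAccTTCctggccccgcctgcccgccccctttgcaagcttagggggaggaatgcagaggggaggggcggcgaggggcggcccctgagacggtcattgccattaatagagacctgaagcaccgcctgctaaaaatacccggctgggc
Hspa5, chr2:34771840-34772139, plus strand: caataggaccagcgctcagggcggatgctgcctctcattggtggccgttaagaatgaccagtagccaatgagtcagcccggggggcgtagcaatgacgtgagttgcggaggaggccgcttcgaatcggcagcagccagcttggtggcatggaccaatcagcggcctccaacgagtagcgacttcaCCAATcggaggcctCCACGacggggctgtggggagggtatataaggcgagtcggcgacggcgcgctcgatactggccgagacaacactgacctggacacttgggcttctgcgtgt
Creld2, chr15:88819396-88819695, plus strand: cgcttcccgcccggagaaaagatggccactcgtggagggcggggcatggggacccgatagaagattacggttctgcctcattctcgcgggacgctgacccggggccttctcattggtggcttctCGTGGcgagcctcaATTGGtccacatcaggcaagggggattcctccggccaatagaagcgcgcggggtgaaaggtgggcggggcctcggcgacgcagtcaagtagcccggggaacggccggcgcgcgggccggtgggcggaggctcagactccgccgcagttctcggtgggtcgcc

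On the FPKM scale, which allows genes to be compared per length, the order of the median levels over 55 mice was Hspa5 (279.77 FPKM), Hspa8 (235.83), Hsp90aa1 (63.66), Creld2 (19.7), Sdf2l1 (17.51), Hsph1 (13.3), Dnajb1 (10.89), Hspa1b (10.31), Hspb1 (5.62) and Hspa1a (1.1). Neighbours in this order often changed places. Hspa5 was above Hspa8 in 36 of 55 mice, Creld2 above Sdf2l1 in 29 of 55, and Dnajb1 above Hspa1b in 33 of 55. Hspa8 was above Hsp90aa1, and Hsp90aa1 above Creld2, in all 55 mice.

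**Figure D1:**
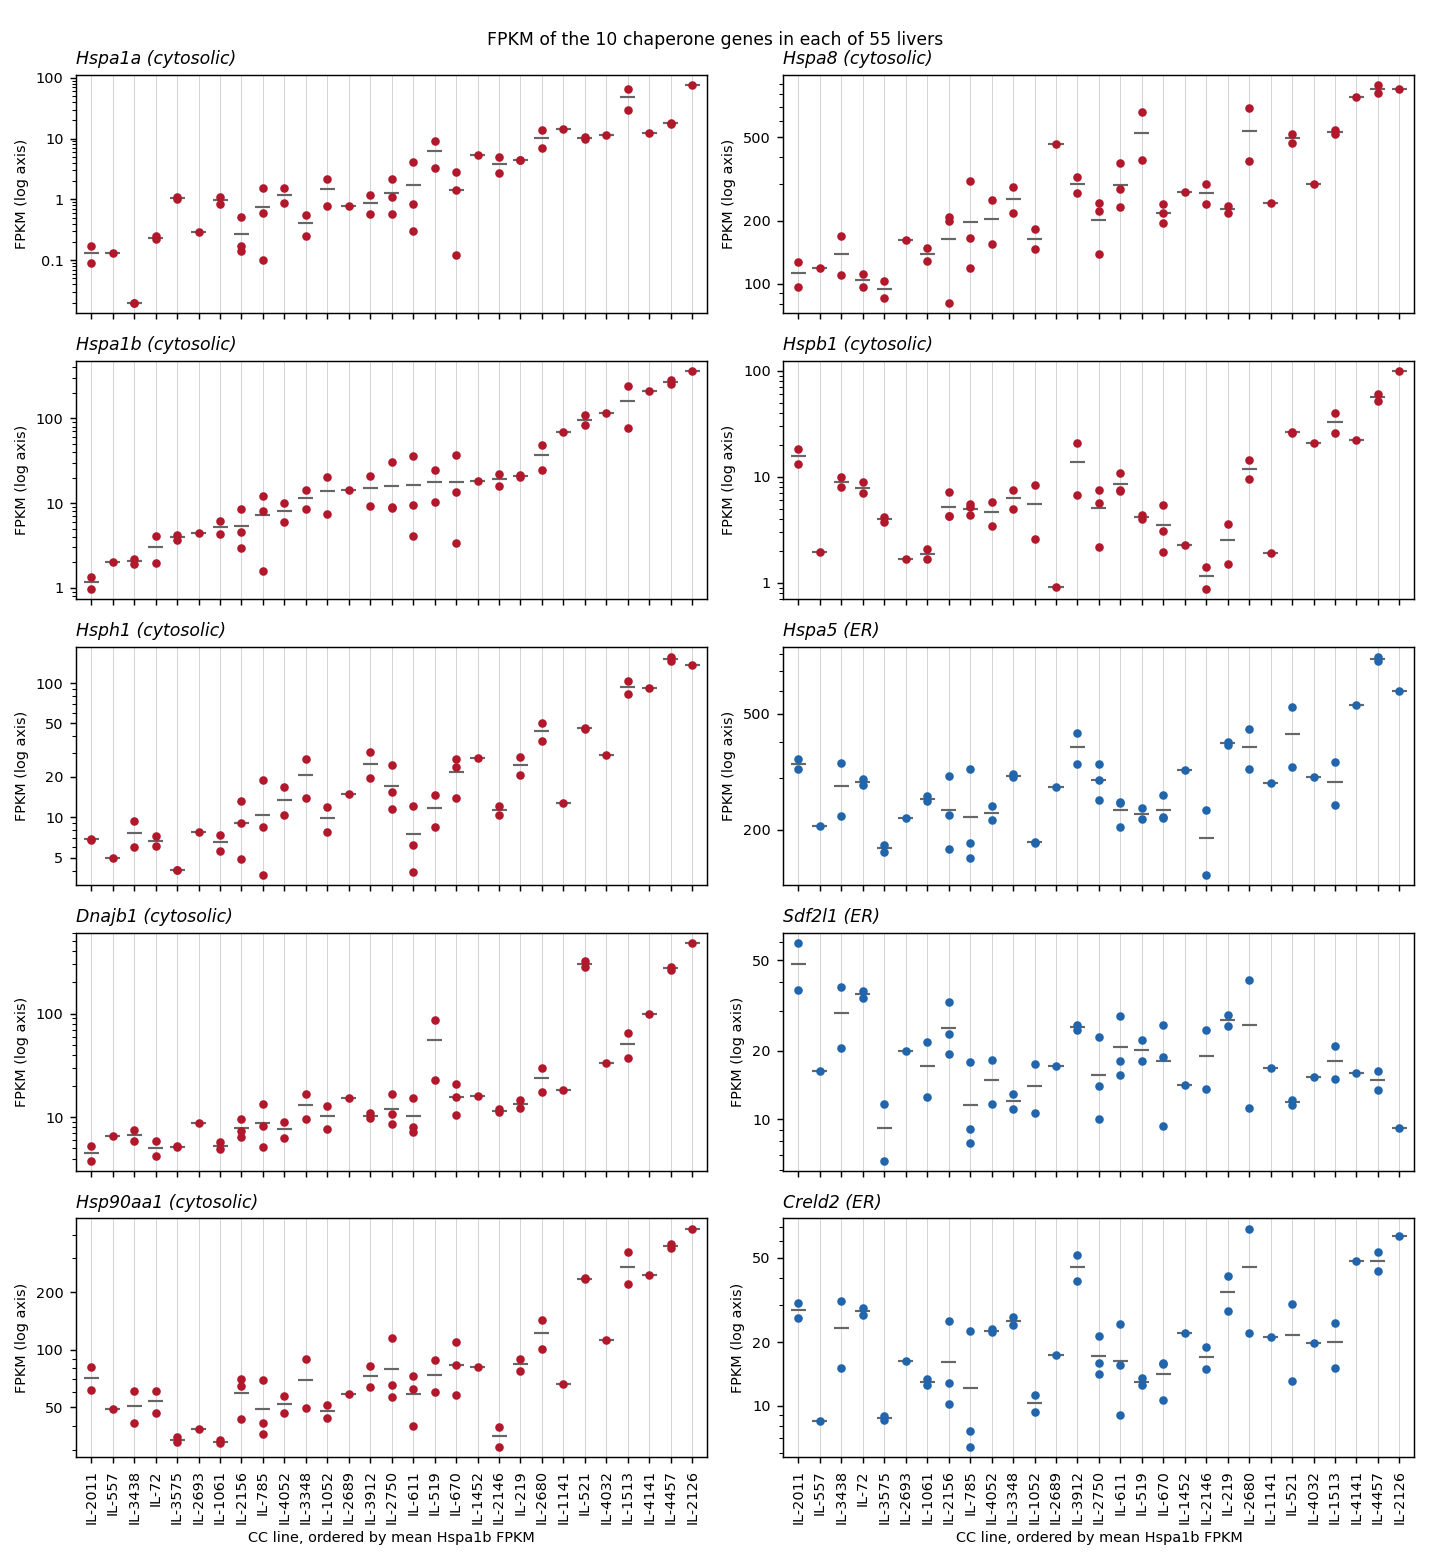
FPKM (log axis) of each of the 10 genes in each of 55 livers, with 1 point per mouse, a grey bar for the mean of a line, and lines ordered by mean Hspa1b FPKM; red marks cytosolic and blue ER genes. The 4 lines on the right end (IL-1513, IL-4141, IL-4457 and IL-2126) are also high in the other cytosolic genes, while Sdf2l1 is highest in IL-2011, where Hspa1b is lowest.

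The cytosolic genes had wider ranges than the ER genes. Between the lowest and the highest line the mean rose by a factor between 9.05 (Hspa8) and 309 (Hspa1b) for the cytosolic genes other than Hspa1a, and by 4.46 for Hspa5, 5.26 for Sdf2l1 and 7.55 for Creld2. In a quasi-likelihood F test of edgeR over 47 mice from the 21 lines with more than 1 mouse, all 10 genes passed (Benjamini-Hochberg adjusted p under 0.05), but so did 88.5% of all genes tested, so passing was the rule and the sizes and shares below say more. The adjusted p was 1.78e-14 for Dnajb1, 1.00e-09 for Hsp90aa1 and for Hspb1, 1.88e-09 for Hsph1, 6.13e-09 for Hspa1a, 1.69e-08 for Hspa8 and 4.37e-08 for Hspa1b. It was 9.38e-06 for Hspa5, 0.00161 for Creld2 and 0.0117 for Sdf2l1. The last rested on 1 liver, since without IL-2011 replicate 1 the adjusted p of Sdf2l1 was 0.0575. These p-values set the differences between lines against the spread among line mates. The labels do not say whether line mates came from separate litters or cages, and the part of a shared litter or cage was not tested.

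The share of variance that lay between lines (intraclass correlation of log2(FPKM + 1) over 55 mice, a description without a test) was 0.923 ± 0.0285 (SE) for Dnajb1, 0.885 ± 0.0419 for Hspa1a and 0.876 ± 0.0451 for Hspb1. Hsp90aa1 had 0.858 ± 0.0510, Hsph1 0.854 ± 0.0524, Hspa1b 0.802 ± 0.0691 and Hspa8 0.801 ± 0.0696. The ER genes lay lower, at 0.712 ± 0.0958 for Hspa5, 0.560 ± 0.134 for Creld2 and 0.347 ± 0.174 for Sdf2l1. The median was 0.858 over the 7 cytosolic genes, 0.560 over the 3 ER genes and 0.570 over all genes tested. Among all genes tested Hspa5 lay at the 77.1 percentile, Creld2 at the 48.2 and Sdf2l1 at the 18.1. The SD of line means on the log2 scale had a median of 1.44 over the cytosolic genes, 0.513 over the ER genes and 0.231 over all genes tested. Within lines both sets varied more than most genes on this scale, with a median SD of 0.467 for the cytosolic and 0.504 for the ER genes against 0.160 for all genes tested. Adding 1 to the FPKM narrows the SD of genes far below 1 FPKM, so both medians of all genes tested can be lower for that reason. The low share of Sdf2l1 came with line mates as unlike each other (SD 0.504) as the lines were (SD of line means 0.509). Without IL-2126 and IL-4457 the cytosolic median was 0.789.

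**Figure D2:**
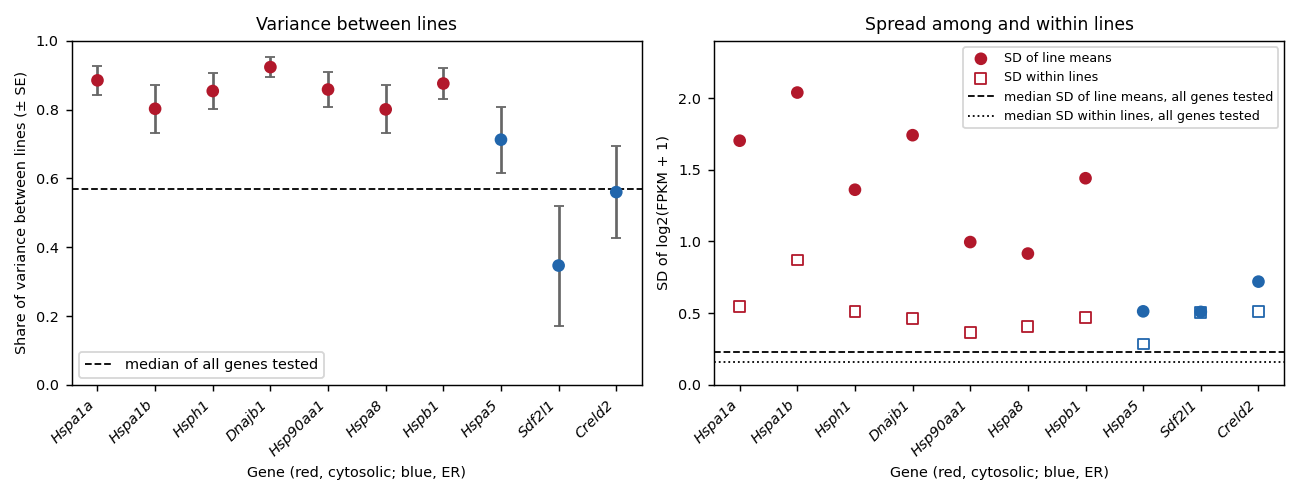
Left, share of the variance of log2(FPKM + 1) between lines with its SE for each gene over 55 mice, with the median of all genes tested as a dashed line; right, SD of line means (filled circles) and SD within lines (open squares) on the log2 scale, with the medians of all genes tested. The 7 cytosolic genes (red) lie between 0.801 and 0.923, and the 3 ER genes (blue) between 0.347 and 0.712.

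Hspa1a and Hspa1b code for the stress-inducible Hsp70 proteins, which hold unfolded proteins and help them refold. The genes lie side by side on the minus strand of chromosome 17 (NCBI build 37, Hspa1b from 35093381 to 35096183 and Hspa1a from 35106144 to 35109069), and their coding sequences differ at 8 aligned bases and are 99.58% identical in the reference transcripts. Fragments that match both are shared out by estimation, so the level of each alone is uncertain. Hspa1b ranged from 0.98 to 357.87 FPKM. Its lowest line was IL-2011, with 1.34 and 0.98 FPKM, and its highest were IL-2126 with 357.87 in 1 mouse, IL-4457 with 254.32 and 282.77, and IL-4141 with 210.45 in 1 mouse. Line mates differed by a median factor of 1.98, but by 10.8 in IL-670, where Hspa1b was 36.8, 3.4 and 13.42 FPKM.

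Hspa1a was the lowest of the 10 genes in most livers and ranged from 0.02 to 75.13 FPKM. In IL-3438 both mice were at 0.02 FPKM, which stood for 1.83 and 1.82 estimated fragments, whereas Hspa1b had 161.24 and 143.66 there. At 1 or 2 fragments no fold change is given for Hspa1a in that line. IL-2126 had 75.13 FPKM in 1 mouse, IL-1513 29.45 and 66.74, and IL-4457 17.33 and 18.14, so that the order of the high lines differed between the 2 genes. The ratio of Hspa1b to Hspa1a had a median of 9.46 over lines and was lowest in IL-519 (2.80). It is not given for IL-3438.

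Dnajb1 codes for an Hsp40 co-chaperone that brings clients to Hsp70 and starts its ATP cycle. It had the highest share of variance between lines of the 10 genes and a sharp upper end. Dnajb1 was 477 FPKM in the mouse of IL-2126, 320.96 and 281.2 in IL-521, 266.74 and 280.08 in IL-4457, 100.29 in the mouse of IL-4141, and 87.5 and 22.96 in IL-519. Its median was 10.89, and its lowest line was IL-2011 with 5.27 and 3.82 FPKM. Against the mean of the other 20 lines, Dnajb1 was higher by a log2 fold change of 4.49 ± 0.201 (SE) in IL-4457 (adjusted p = 4.03e-17 by edgeR) and of 4.44 ± 0.202 in IL-521 (adjusted p = 1.60e-16 by edgeR).

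Hsph1, an Hsp110 protein that recharges Hsp70 with ATP, did not share that order. It was 146.25 and 155.46 FPKM in IL-4457, 136.35 in IL-2126, 82.77 and 104 in IL-1513, and 92.28 in IL-4141, but 46.03 and 45.78 in IL-521. Its lowest line was IL-3575, with 4.03 and 4.08 FPKM. The ratio of Dnajb1 to Hsph1 thus ran from 0.413 in IL-3912 to 6.56 in IL-521. Of the variance of their difference in log2(FPKM + 1), 0.884 ± 0.0422 (SE) lay between lines.

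Hspa8 and Hsp90aa1 are the abundant members. Hspa8 codes for the constitutive Hsc70, and Hsp90aa1 for the inducible form of Hsp90, which matures kinases and steroid receptors. Hspa8 ranged from 81.23 to 883.22 FPKM, with 816.41 and 883.22 in IL-4457, 851.83 in IL-2126 and 780.51 in IL-4141 at the upper end, and 85.24 and 102.92 in IL-3575 at the lower. It was also high in IL-519 (661.36 and 387.94) and in IL-2680 (692.24 and 383.14), where line mates were far apart. Hsp90aa1 ranged from 31.21 to 425.97 FPKM, from 33.62 and 32.39 in IL-1061 to 340.52 and 356.58 in IL-4457 and 425.97 in IL-2126.

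Hspb1 codes for a small heat shock protein that binds unfolded proteins without ATP. It ranged from 0.88 to 98.53 FPKM and departed from the other cytosolic genes at the lower end. The mouse of IL-2689 had 0.91 FPKM of Hspb1 and IL-2146 had 1.42 and 0.88, whereas IL-2011, lowest in Hspa1b and Dnajb1, had 13.27 and 18.41. The upper end was again IL-2126 (98.53), IL-4457 (60.74 and 51.93) and IL-1513 (25.97 and 40.02).

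Of the ER genes, Hspa5 codes for BiP, the Hsp70 of the ER and the main sensor-binding chaperone of the unfolded protein response. Hspa5 ranged from 140.27 to 780.95 FPKM, and IL-4457 stood above all other lines with 756.58 and 780.95. The mouse of IL-2126 had 597, that of IL-4141 534.38, and the 2 mice of IL-521 had 527.7 and 327.75. The lowest line was IL-3575 with 176.98 and 168.02.

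Creld2, an ER protein induced by ER stress, ranged from 6.41 to 68.25 FPKM. Its highest line mean was 63.79 in the mouse of IL-2126, but its highest mouse was IL-2680 replicate 2 (68.25), whose line mate had 22.18. Sdf2l1, a protein of the BiP and ERdj3 complex, ranged from 6.59 to 59.21 FPKM, and its highest line was IL-2011 with 59.21 and 36.94. Sdf2l1 was 9.15 FPKM in IL-2126, and 16.28 and 13.43 in IL-4457, both below its median of 17.51 although Hspa5 was highest there. IL-2680 replicate 2 had 40.84 FPKM of Sdf2l1 against 11.22 in its line mate, the widest gap of line mates for this gene.

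To see in which lines the genes departed from the rest, each of the 21 lines was compared with the mean of the other 20 lines. Over all genes and lines, 10.9% of pairs were called higher and 7.18% lower. The 7 cytosolic genes were called higher in 29 and lower in 27 of their 147 gene and line pairs, and the 3 ER genes higher in 5 and lower in 3 of 63. Per gene, Dnajb1 was called in 10 of 21 lines, Hspa1a and Hspa8 in 9, Hsph1 and Hspb1 in 8, Hspa1b and Hsp90aa1 in 6, Creld2 in 4, Hspa5 in 3 and Sdf2l1 in 1.

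IL-4457 had the broadest rise. All 7 cytosolic genes, Hspa5 and Creld2 were higher, 9 of the 10, where 20.9% of all genes were called higher. Hspa1b was higher by a log2 fold change of 4.68 ± 0.383, Hsph1 by 3.47 ± 0.257, Hspb1 by 3.28 ± 0.242, Hsp90aa1 by 2.44 ± 0.193 and Hspa8 by 2.02 ± 0.211. Hspa5 was higher by 1.61 ± 0.176 (adjusted p = 1.27e-08 by edgeR) and Creld2 by 1.40 ± 0.326 (adjusted p = 0.000928 by edgeR). The call of Creld2 in IL-4457 was lost without replicate 2 of that line (1.25, adjusted p = 0.0563 by edgeR). Immediate early genes, which cells switch on within minutes of a stimulus, were called higher in 8 of 9, and their summed level was 206.57 and 240.85 FPKM in the 2 mice against a median of 39.53 over all mice. Cirbp, a cold-inducible RNA-binding protein, had its lowest line mean here (3.60 FPKM).

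IL-1513 and IL-521 each had all 7 cytosolic genes higher and no ER gene called. In IL-1513, where 15.1% of all genes were called higher, Hspa1a was higher by a log2 fold change of 5.21 ± 0.382 and Hspa8 by 1.14 ± 0.233, the latter with no call once body weight was a covariate (0.88). In IL-521, where 10.1% were called higher, Dnajb1 led, followed by Hspa1b at 2.92 ± 0.452, Hspa1a at 2.85 ± 0.479 and Hspb1 at 1.94 ± 0.282. The calls of Hsph1 and Hspa8 in IL-521 were lost without IL-521 replicate 1, at log2 fold changes of 1.49 and 0.93. Hspa5 was not called in IL-521, at 0.52 (adjusted p = 0.0717 by edgeR), and passed without IL-4457 (0.60), without IL-521 replicate 2 (0.86) and without any one of IL-785 replicate 1, IL-2156 replicate 3 and IL-2146 replicate 2. The summed level of immediate early genes was 501.26 and 619.77 FPKM in IL-521 and 146.8 and 95.03 in IL-1513.

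High immediate early genes did not always come with the same chaperones. In IL-519 their sum was 618.27 and 457.02 FPKM, all 9 were called higher, and of the chaperone genes Hspa1a, Dnajb1 and Hspa8 were higher, by log2 fold changes of 2.39 ± 0.506, 2.17 ± 0.255 and 1.51 ± 0.223, where 8.75% of all genes were called higher. Hspa1b (0.52 ± 0.593, adjusted p = 0.648 by edgeR), Hsph1, Hsp90aa1 and Hspb1 were not called there, although Hspa1a and Hspa1b share fragments. In IL-2680 the sum of immediate early genes was 39.53 and 21.16 FPKM, and none of the 9 was called higher. Hspa1a, Hsph1, Hspa8 and Creld2 were higher there, 4 of the 10 against 10.5% of all genes. Hspa1b was not called in IL-2680 (1.31 ± 0.542). The part of the immediate early genes in the chaperone levels was not tested.

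At the low end, IL-3575 had 6 of the 10 genes lower, in both compartments, where 6.58% of all genes were called lower. Hsph1 was at a log2 fold change of -2.13 ± 0.467, Dnajb1 at -1.70 ± 0.388, Hspa8 at -1.48 ± 0.306, Creld2 at -1.38 ± 0.441, Hsp90aa1 at -1.27 ± 0.287 and Hspa5 at -0.84 ± 0.229. In IL-72 Hspa1b, Hsph1, Dnajb1 and Hspa8 were lower, 4 of the 10 against 5.27% of all genes, and no ER gene was called. IL-1061, where 4.34% of all genes were called lower, had Hspb1 at -1.83 ± 0.453, Dnajb1 at -1.45 ± 0.382 and Hsp90aa1 at -1.11 ± 0.283. IL-2156, where 10.2% were called lower, had Hspa1a, Dnajb1 and Hspa8 lower. IL-3438, where 2.22% were called lower, had Hspa1a, Hspa1b and Dnajb1 lower, with Hspb1 (9.92 and 7.95 FPKM) above its median in both mice. The call of Hspa1a there rests on 1.83 and 1.82 estimated fragments.

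Single genes departed in other lines. IL-2146 was called for more genes than any other line, 26.1% higher and 23.1% lower. It had Hspa1a higher by 1.48 ± 0.558 beside Hspb1 at -2.64 ± 0.476, Hsp90aa1 at -1.11 ± 0.283 and Hspa5 at -0.61 ± 0.224. Hspa1b, which shares fragments with Hspa1a, was not called in IL-2146 (0.46 ± 0.596). The ratio of Hspa1b to Hspa1a was 4.93 there, against a median of 9.46 over lines. Creld2 was higher in IL-3912 by 1.11 ± 0.336 (51.8 and 38.91 FPKM), where 9.84% of all genes were. Hspb1 was lower in IL-219 (-1.70 ± 0.442) and in IL-670 (-0.94 ± 0.329), where 5.65% and 7.18% of all genes were called lower, and Hsph1 was lower in IL-611 (-1.05 ± 0.347), where 5.83% were. In IL-1052, IL-2750, IL-3348, IL-4052 and IL-785 none of the 10 genes was called.

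IL-2011 had calls in both directions. Hspa1a, Hspa1b, Hsph1, Dnajb1 and Hspa8 were lower there, 5 of the 10 where 8.16% of all genes were called lower, while Sdf2l1, at a log2 fold change of 1.37 ± 0.326 (adjusted p = 0.00272 by edgeR), and Hspb1, at 1.18 ± 0.311, were higher, where 12.3% were. Hsp90aa1 (-0.09 ± 0.256), Hspa5 (0.24 ± 0.205) and Creld2 (0.46 ± 0.363) were not called. Each of these 7 calls was lost without one of the mice. Without IL-2011 replicate 1 those of Hspa1a (-4.32), Hspa1b (-3.97), Hsph1 (-1.31), Hspa8 (-1.10), Hspb1 (1.34) and Sdf2l1 (0.93, adjusted p = 0.298 by edgeR) were lost. Without replicate 2 those of Hspa1a (-3.25), Hspa1b (-3.43), Hsph1 (-1.23), Dnajb1 (-1.58) and Hspb1 (0.99) were lost. The call of Hsph1 in IL-2011 was also lost without IL-4457 (-1.10) and that of Hspb1 in IL-2011 with depth as a covariate (0.87).

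The lines with 1 mouse were compared in a fit of all 55 mice and 16140 genes, in which a lone mouse is assumed to vary like the others and the line cannot be told apart from the animal. The mouse of IL-2126 had 9 of the 10 genes higher, where 16.7% of all genes were, and that of IL-4141 also had 9, where 7.09% were. Sdf2l1 was the exception in both, at log2 fold changes of -0.99 ± 0.604 and -0.04 ± 0.539 without a call. Hspa5 was higher by 1.06 ± 0.259 in IL-2126 and by 1.03 ± 0.260 in IL-4141, and Dnajb1 by 4.91 ± 0.245 and 2.71 ± 0.323. The mouse of IL-4032 had Hspa1a, Hspa1b and Hspb1 higher (3.25% of all genes), and that of IL-1141 had Hspa1a higher (3.72%). That of IL-557 had Hsph1, Dnajb1, Hspa8 and Hspb1 lower (5.4%), and that of IL-2689 had Hspb1 lower (0.632%).

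**Figure D3:**
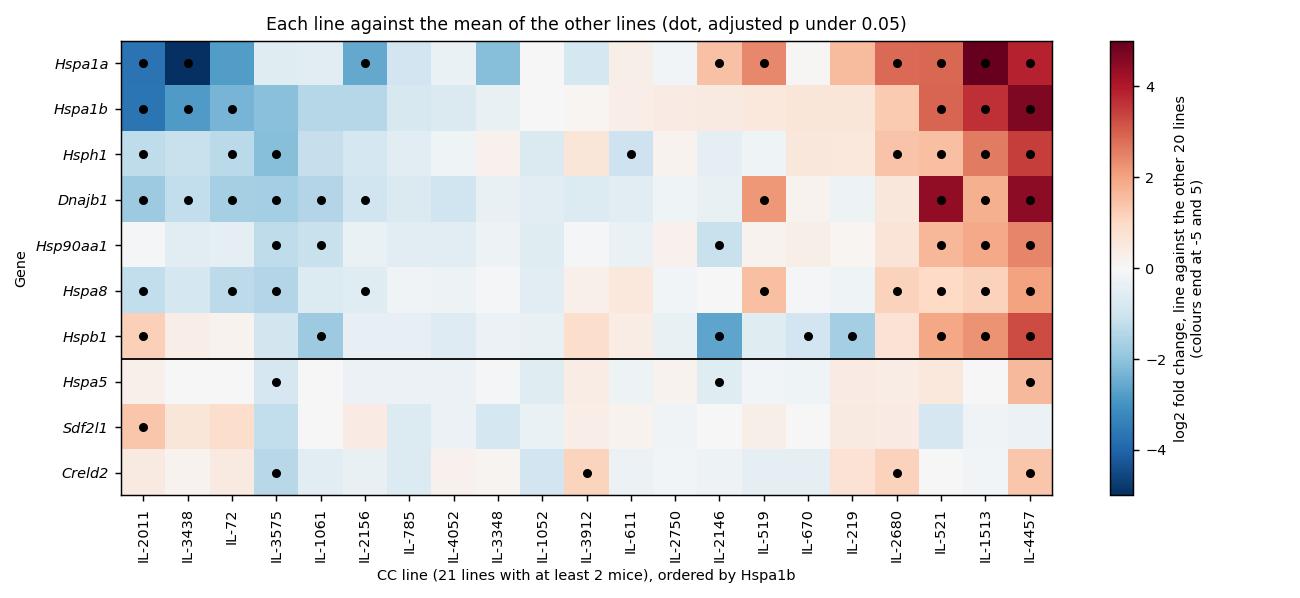
Log2 fold change of each gene in each of the 21 lines with at least 2 mice against the mean of the other 20 lines, with lines ordered by Hspa1b, cytosolic genes above the black line and ER genes below it, and a dot for an adjusted p under 0.05. IL-4457 on the right is higher in 9 of 10 genes, and IL-2011 on the left is lower in 5 cytosolic genes and higher in Hspb1 and Sdf2l1. Hspa1a in IL-3438 and in IL-1513 lies beyond the ends of the colour scale.

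Markers of other liver cells differed among these livers too. The sum of 7 macrophage markers was 19.15 FPKM in IL-2126 against a median of 61.66 over all mice, but 66.19 and 92.89 in IL-4457. Over the means of 29 lines all 7 had a negative r with Hspa1b, between -0.363 and -0.217. All 5 cholangiocyte markers had a positive r with Hspa1b, from 0.0676 (Spp1) to 0.702 (Krt7), with a median of 0.463. The cholangiocyte sum, most of it Spp1, was 125.49 and 118.88 FPKM in IL-4457 against a median of 27.46. It was 135.77 and 125.48 in IL-2011, where Hspa1b was lowest. The hepatocyte sum had its lowest line mean in IL-1513 (38491 FPKM). The sums of 5 endothelial and 6 stellate cell and fibroblast markers were lowest in IL-2146, at line means of 11.8 and 12.7 FPKM against medians of 30.69 and 68.31, in a line where Hspb1, Hsp90aa1 and Hspa5 were lower. No marker of these 5 lists was at 0 in any mouse. In bulk tissue fewer cells of a type and less RNA per cell cannot be told apart, and the part of cell composition in the chaperone levels was not tested.

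Across lines the cytosolic genes rose and fell together. Over the means of 29 lines, which share library preparation and scaling, Pearson's r of log2(FPKM + 1) had a median of 0.844 over the 21 pairs of cytosolic genes, from 0.568 (Hspa8 and Hspb1) to 0.939 (Hsph1 and Hsp90aa1). Without IL-2126 and IL-4457 the median was 0.778. By ranks (Spearman's rho) the median over all 29 lines was 0.801, from 0.337 (Hspa1a and Hspb1) to 0.938 (Hspa1b and Dnajb1). Hspa1a and Hspa1b had 0.932, which shared fragments can raise. The weakest member was Hspb1, with 0.611 to Hspa1a, 0.632 to Hspa1b and 0.844 to Hsp90aa1, which without IL-2126 and IL-4457 were 0.409, 0.437 and 0.741.

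Among the ER genes the values over lines were uneven. Hspa5 and Creld2 had an r of 0.880, but Sdf2l1 had 0.0123 to Hspa5 and 0.201 to Creld2. Without IL-2126 and IL-4457 these were 0.852, 0.275 and 0.471. Between compartments the median over 21 pairs was 0.586, and 0.419 without IL-2126 and IL-4457. Hspa5 was positive to all 7 cytosolic genes, from 0.597 (Hspa1a) to 0.839 (Hsp90aa1), and from 0.419 to 0.738 for the same pairs without IL-2126 and IL-4457, whereas Sdf2l1 was negative to all 7 of them, from -0.415 (Hspa1b) to -0.0995 (Hspb1). Without IL-2126 and IL-4457 the value of Sdf2l1 and Hspb1 was 0.139, and the other 6 stayed negative.

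Among line mates Sdf2l1 followed the other ER genes. For the deviations of 47 mice from their line means, Sdf2l1 had an r of 0.754 to Creld2 and 0.451 to Hspa5, and Hspa5 had 0.808 to Creld2. The cytosolic pairs had a median of 0.773, from 0.302 (Dnajb1 and Hspb1) to 0.942 (Hspa1a and Hspa1b). The pairs between compartments had a median of 0.214, from -0.0579 (Hspa1a and Sdf2l1) to 0.577 (Hsph1 and Hspa5).

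**Figure D4:**
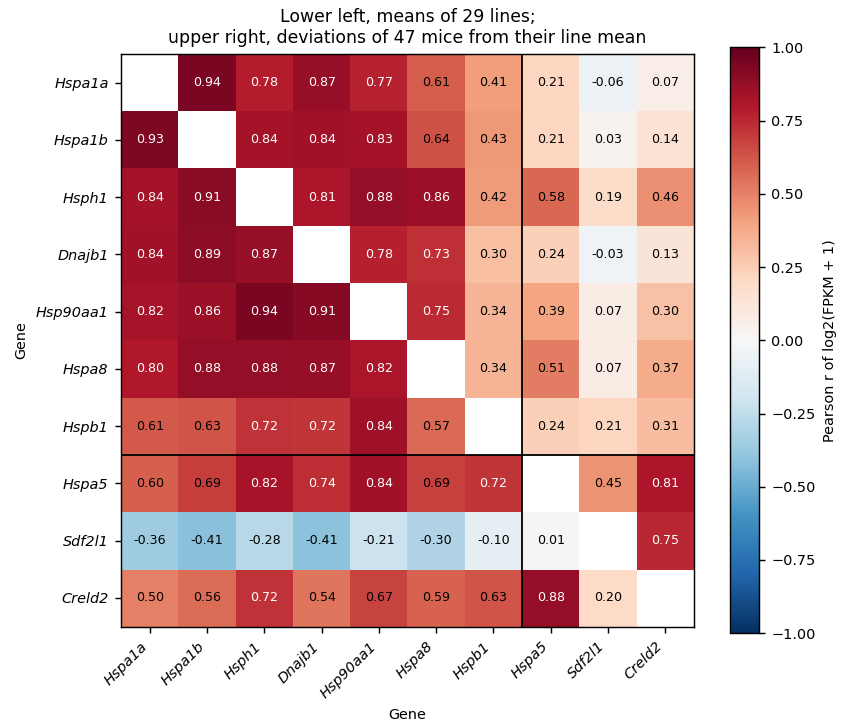
Pearson's r of log2(FPKM + 1) for each pair of genes, over the means of 29 lines (lower left) and over the deviations of 47 mice from their line means (upper right), with black lines between cytosolic and ER genes. Sdf2l1 is negative to all 7 cytosolic genes over lines, and positive to Creld2 (0.754) and Hspa5 (0.451) among line mates.

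The genes most like each cytosolic gene over 29 lines were found by their Pearson's r over line means, and ranks can give another order. Hspa1b was closest to Bag3 (r = 0.943), a co-chaperone that releases clients from Hsp70, then to Hspa1a and to Hsp90ab1 (0.906), the constitutive Hsp90. Hspa1a was closest to Hspa1b, Bag3 (0.892) and Jmjd6 (0.868). Hsph1 was closest to Stip1 (0.963), which links Hsp70 to Hsp90, then to Bag3 (0.960) and Uspl1 (0.951), a gene on the same chromosome at a distance of 389852 bases. Dnajb1 was closest to Dnaja1 (0.944), another Hsp40, then to Atf3 (0.941), a stress-induced transcription factor. By ranks (Spearman's rho) Dnajb1 had 0.893 with Dnaja1 and 0.685 with Atf3, against 0.938 with Hspa1b. Hsp90aa1 was closest to Hsp90ab1 (0.941), Hsph1 and Cacybp (0.932). Hspa8 had 3 members as its closest genes, Hspa1b, Hsph1 and Dnajb1. Hspb1 was closest to Hsp90aa1, Hnrnph1 (0.839) and Ptges3 (0.829), the Hsp90 co-chaperone p23. By ranks Hspb1 had 0.643, 0.706 and 0.732 with these genes. The middle 95% of all genes lay between -0.606 and 0.635 for Hspa1b. The closest genes were picked as the highest, so they lie above that range by selection.

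The genes closest to each ER gene were found in the same way. Creld2 was closest to Hyou1 (0.904), the large Hsp70-like protein of the ER, then to Srprb (0.891), a subunit of the receptor for the signal recognition particle, and Hspa5. Sdf2l1 was closest to Pdia4 (0.776), a protein disulfide isomerase, Ncoa5 (0.760) and Slc35b1 (0.736), an ER membrane transporter. Hspa5 was closest to Trim39 (0.895), Pde12 (0.890) and Morf4l2 (0.884), none of them a chaperone, before Creld2. The cytosolic Hsp90aa1 (0.8385) was at rank 13 for Hspa5 and Hsph1 (0.8225) at rank 20.

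Lists of related genes were described the same way. Of 25 further cytosolic chaperones and co-chaperones all 25 differed among lines, and their median share of variance between lines was 0.748, highest in Dnaja1 (0.892) and Dnajb4 (0.871) and lowest in Cryab (0.242) and St13 (0.326). Their median r was 0.695 with Hspa1b and 0.650 with Hspa5, above 0 in 22 of 25 for both. Hsf1 itself, named after its values were seen, ranged only from 2.18 to 5.74 FPKM and had an r of 0.313 with Hspa1b. Of 26 further genes of ER chaperones and the unfolded protein response 24 differed among lines, Hsp90b1 (adjusted p = 0.0575 by edgeR) and Dnajc3 (adjusted p = 0.0930 by edgeR) being the exceptions. Their median share was 0.592, highest in Sil1 (0.930) and Herpud1 (0.921) and lowest in Dnajb11 (0.354) and Hsp90b1 (0.421). Their median r was 0.453 with Hspa5 and 0.132 with Hspa1b. All counts of genes that differed stand beside the 88.5% of genes tested that did. The values of r here and below stand beside a median over all genes of -0.0295 with Hspa1b and 0.00529 with Hspa5.

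Further, all 9 mitochondrial chaperones and proteases differed among lines, with a median share of 0.696. Hspe1 (0.924) and Hspd1 (0.864), which together fold proteins of the mitochondrial matrix, were highest, and Lonp1 (0.329) and Trap1 (0.391) lowest. Hspd1 had an r of 0.812 with Hspa1b and Hspe1 of 0.795. The median r of the 9 genes with Hspa1b was 0.3595, and Clpx had -0.654. All 9 immediate early genes differed, with a median share of 0.780, highest in Ier2 (0.938) and Fos (0.933) and lowest in Dusp1 (0.555) and Fosb (0.597), and all 9 had an r above 0 with Hspa1b (median 0.522). All 12 cold-inducible and clock genes differed, with a median share of 0.767, highest in Clock (0.872) and Arntl (0.845) and lowest in Rbm3 (0.415) and Nr1d2 (0.631). Per1, named after its values were seen, had an r of 0.728 with Hspa1b, Arntl of -0.626 and Cirbp, also named afterwards, of -0.794. Per1 and Cirbp were the extremes of this list. The median r of the 12 genes with Hspa1b was 0.2265, with 7 above 0, and Rbm3 had 0.0377. Arntl and Per1 peak at opposite times of day in mouse liver. Line means of Arntl ran from 0.185 FPKM in IL-2146 to 7.94 in IL-72, and the part of the hour of collection in the chaperone levels was not tested.

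The isoform shares, which are scaled within a gene, added a second kind of line difference. For Hspa8, isoform ENSMUST00000015800 made up between 55.02% and 74.82% of the gene in the 2 mice of IL-519 (59.57% and 55.02%), the 3 of IL-611 (74.82%, 56.85% and 68.75%) and the 1 of IL-2689 (69.25%). In the other 49 mice this isoform was between 5.35% and 28.87%. IL-519, IL-611 and IL-2689 were picked for their high shares, so the lack of overlap was no test. Of the variance of the share 0.936 lay between lines, without a value over all isoforms for comparison. Compared with the leading isoform ENSMUST00000117557, the first exon of ENSMUST00000015800 starts earlier (at base 40609067 rather than 40609385). ENSMUST00000015800 also keeps 57 further coding bases at the start of an exon (from 40610822 rather than 40610879 to 40610974, chromosome 9 of build 37). The gene had between 4282 and 56099 estimated fragments per mouse. The total level of Hspa8 was not alike in these lines, at 524.7 FPKM in IL-519, 297 in IL-611 and 463.2 in IL-2689.

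For Hspa1b, isoform ENSMUST00000165202 ends 562 bases before ENSMUST00000172753, with the same coding sequence. Its share was 51.07% and 55.01% in IL-3575, 61.34% and 37.76% in IL-1061, 41.13% and 41.27% in IL-2680 and 39.27% and 40.03% in IL-2146, and it was listed at 0% in 22 of 55 mice. Of the variance of this share 0.909 lay between lines, again without a value over all isoforms. Of these lines IL-3575 and IL-2680 had 3.94 and 36.6 FPKM of Hspa1b. Both the line with the highest level, IL-2126, and the one with the lowest, IL-2011, were at 0%. Hspa1b had only 97.55 and 65.52 estimated fragments in IL-2011, and 243.97 and 335.69 in IL-3575. ENSMUST00000165202 is 99.17% identical to the Hspa1a transcript where they align, and ENSMUST00000172753 94.8%. The part of the sharing of fragments with Hspa1a in these shares was not tested. Reads from all lines were aligned to 1 reference genome, and the part of sequence differences between founders in these shares was not tested. For Hspa5 the second isoform, ENSMUST00000100171, which retains the first intron in its leading exon, ranged from 1.6% to 27.53% and was highest in IL-1513 (15.84% and 27.53%). Hspa1a, Sdf2l1 and Creld2 had a single annotated isoform.

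**Figure D5:**
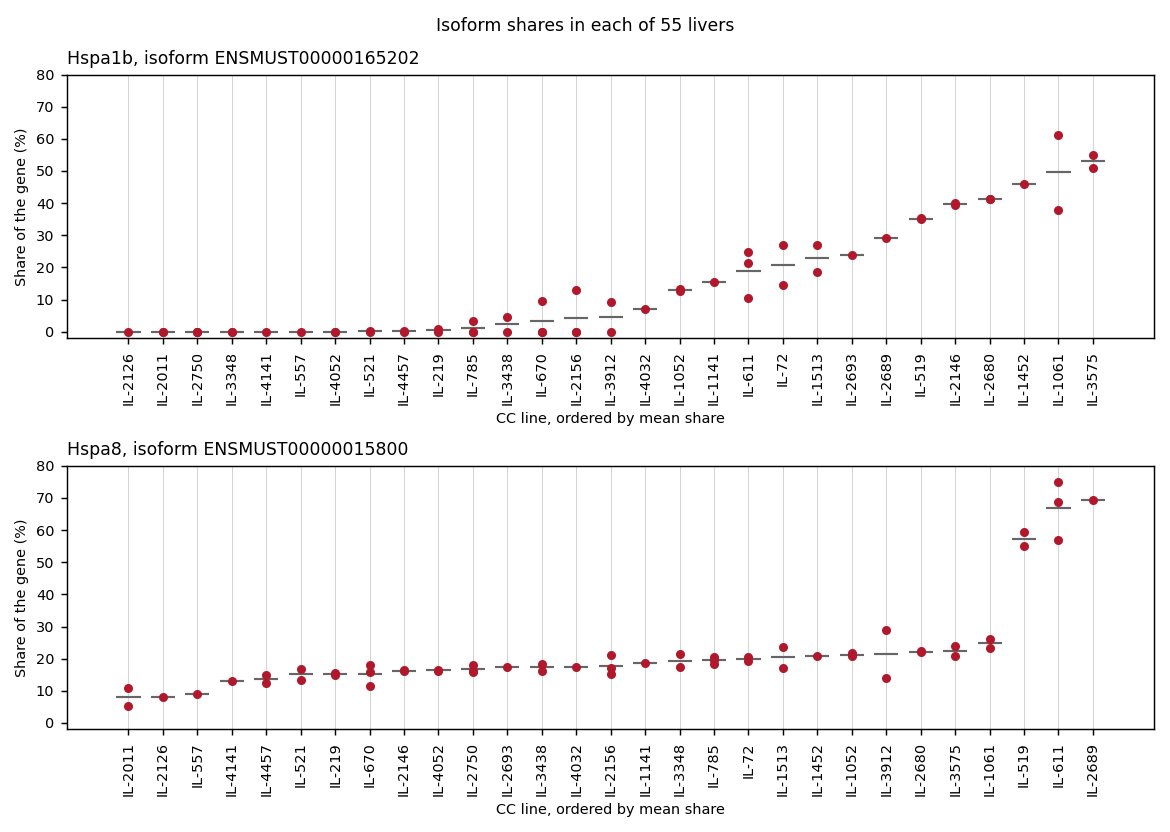
Share of the gene in percent for isoform ENSMUST00000165202 of Hspa1b (top) and isoform ENSMUST00000015800 of Hspa8 (bottom), with 1 point per mouse, a grey bar for the mean of a line, and lines ordered by the mean share in each panel. The 6 mice of IL-519, IL-611 and IL-2689 are above 55% for Hspa8 and the other 49 are below 29%, whereas Hspa1b shares spread from 0% to 61.34%.

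The body weight and age of the lines were compared with the genes over 29 summed libraries. With body weight, 0.0398% of 15064 genes were called higher and 0.0398% lower, and none of the 10 genes was among them. The closest was Hspa5, with a log2 slope of 0.0422 ± 0.0203 per g (adjusted p = 0.461 by edgeR). With age, 0.0196% of 15291 genes were called higher and 0% lower, again without any of the 10. Creld2 had a slope of 0.389 ± 0.113 per week (adjusted p = 0.398 by edgeR). At an unadjusted p under 0.05 there were 1592 genes for weight and 1162 for age.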

How the data were processed

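Liver RNA of 55 untreated male CC mice was sequenced by the authors as paired reads of 50 bases. They aligned the reads to mouse genome NCBI build 37 with Ensembl genes and estimated gene and isoform levels with RSEM 1.2.18. The deposited gene tables hold expected counts, TPM and FPKM, and the deposited isoform tables hold these and the isoform share as a percent of the gene. Founder differences from the reference genome can lower the share of reads that align in a line. The FPKM values are deposited with 2 decimals.

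Expected counts were rounded to whole numbers and tested with edgeR 4.0.16 in R 4.3.3 (TMM, quasi-likelihood, filterByExpr by line, Benjamini-Hochberg over all genes tested, threshold 0.05). Lines with at least 2 mice were compared (47 mice, 21 lines), and each line was also compared with the mean of the other 20. Counts summed per line were regressed on body weight or age (29 lines). Shares of variance and correlations used log2(FPKM + 1), and the fold changes are those of the count fit. DESeq2 1.42.0 and limma 3.58.1 served as alternatives. The scripts were tested on simulated data. Symbols were matched for 37205 of 37620 gene IDs. The precision of each value is limited by the depth, from 20.5 M to 34.0 M fragments, and by the number of mice per line.

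The genes and lists were chosen with earlier results of these data known. Named besides the 10 genes were the 3 genes most correlated with each over line means (1 of them is not reported here) and, of each other list, the 2 with the highest and the 2 with the lowest share of variance between lines; named lines were those with the lowest and highest means and with most calls. Replicate numbers follow the order of deposit. No 2 libraries held identical values.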

Additional observations from a re-analysis of the deposited data

How the results depend on the processing

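No paired analysis was possible because the labels give the mice no replicate numbers and the comparison is between lines, not within pairs. No value that had passed its threshold changed sign, whereas some that had not passed did, among them Creld2 in IL-521 without IL-1052 and IL-2750 and the slope of Hspa5 on body weight within lines. The r of Sdf2l1 and Hspb1 over lines, -0.0995, was 0.139 without IL-2126 and IL-4457. The number of genes that differed among lines stayed between 13129 and 13599 when each mouse was left out, and the number of calls of each line against the other lines, 57957, between 53502 and 60523. The genes called with body weight, 12, became 0 with at least 10 counts in every line, 6 without IL-2126 and IL-4457 and 50 with DESeq2, and lay between 4 and 22 when each line was left out. Those called with age, 3, became 0 with at least 10 counts, 1 over the 21 lines, 1 without IL-2126 and IL-4457 and 48 with DESeq2, and lay between 1 and 5 when each line was left out. The median share of variance between lines of the cytosolic genes, 0.858, was 0.938 on the FPKM scale without a log, 0.740 after ranking to van der Waerden scores and 0.789 without IL-2126 and IL-4457, and between 0.839 and 0.875 when each mouse was left out. That of the ER genes, 0.560, lay between 0.524 and 0.659. The median r of cytosolic pairs, 0.844, was 0.778 without IL-2126 and IL-4457. That of ER pairs, 0.201, was 0.488 over the 21 lines and 0.471 without those lines, and that of pairs between compartments, 0.586, was 0.405 and 0.419. The cause of these changes was not tested. In fits without a mouse the trend of the dispersion was kept from the fit of all mice, and the contrasts of single genes were recomputed only for IL-4457, IL-1513, IL-521 and IL-2011. The alternatives without IL-4457 or without IL-2126 and IL-4457, and the fit of 55 mice, were chosen after seeing the data. In that fit, with 28 other lines as the reference, Hsph1 was called in 13 lines, Hspb1 in 13, Hspa1b in 11, Hspa5 in 5 and Sdf2l1 in 2. Depth limits Hspa1a most, with a median of 100.7 estimated fragments per mouse.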

Other observations

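Ratios of FPKM within a liver do not depend on the scaling of its library. The shares of variance given with them used differences of log2(FPKM + 1), which can depend on it at low levels. The ratio of Hspb1 to Hsph1, both cytosolic, ran over line means from 0.0606 in IL-2689 to 2.31 in IL-2011. Of the variance of their difference in log2(FPKM + 1), 0.766 lay between lines. The ratio of the ER genes Hspa5 and Sdf2l1 had a median of 15.1, with 6.99 in IL-2011 and 65.2 in IL-2126, and a share of 0.630. The ratio of Hspa5 to Creld2 was steadier, between 8.45 and 24.4, with a share of 0.398.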
